A study of Mus musculus with 69 samples.

Results

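Pax6, Sox1, Irx3, Nes, Tubb3 and Map2 are 6 genes used as markers of neural progenitors and neurons, and they were taken by name from the gene column of 3 deposited expression tables. All 6 had a row in each table, out of 15924 genes listed in at least 1 table. Pax6 (a paired-box homeodomain protein), Sox1 (a SoxB1 protein) and Irx3 (an Iroquois homeodomain protein) are transcription factors that pattern the neural tube. Nes (nestin) is an intermediate filament protein of progenitors, Tubb3 is a beta tubulin isotype enriched in neurons, and Map2 is a microtubule-associated protein of dendrites.

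The cells were CJ7, a mouse embryonic stem (ES) cell line grown with leukaemia inhibitory factor and serum on fibroblast feeder cells, and embryoid bodies, which are aggregates formed in hanging drops in which the cells differentiate without directed neural induction. The study asks what H3K27me3, the histone mark written by Polycomb repressive complex 2 (PRC2), does as such cells differentiate and afterwards. The 41 RNA-seq libraries used here came as GSK343 and DMSO cultures (2 libraries in each of 6 groups), EZH2-mutant and wild-type (WT) cultures (3 libraries in each of 6 groups), each sampled as ES cells at day 0 and as embryoid bodies at day 4 and day 8, and replated cultures at day 14. GSK343, a small-molecule inhibitor of EZH2, was present at 4 µM from 3 days before differentiation, and DMSO is its vehicle. Replated embryoid bodies spent 5 days in ES cell medium. Their 4 groups are named by the agent given during differentiation and then the agent given after replating, namely GSK343 then GSK343 (2 libraries here), GSK343 then DMSO, DMSO then GSK343 and DMSO then DMSO (3 libraries each). The labels give no allele for the mutant, do not say whether it is 1 clone, and leave unsaid if replicates came from separate cultures, so p-values measure the spread between these libraries.

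Many neural developmental genes carry H3K27me3 in ES cells, where PRC2, with the catalytic subunit EZH2 and the core subunit Suz12, and PRC1, with the ubiquitin ligase Ring1B, occupy their CpG-rich start sites while transcription is low. In the embryo, loss of pluripotency in the epiblast is followed by Sox1 and Pax6 in the neural plate, nestin in dividing progenitors, and Tubb3 and Map2 in neurons. Irx3 is not limited to neural tissue and also acts in heart, limb and other mesoderm.

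The Ezh2 transcript level and the libraries were checked first. Ezh2 ran from 18.3 to 26.5 RPKM in the 9 mutant libraries and from 37.2 to 62.5 RPKM in the 9 WT libraries, so the ranges did not overlap, and transcripts remained in the mutant. The RNA level does not show how much EZH2 function or H3K27me3 remained. Depth in M reads, recovered from the values, was 5.01 to 22 M for GSK343 and DMSO, 7.17 to 28.5 M for mutant and WT, and 2.27 to 8.34 M for replated cultures. The ribosomal precursor Rn45s took up to 11.5%, 57.9% and 33.98% of a library's reads in these tables, and library 2 had the highest share in each mutant and WT group. RPKM are reads scaled to gene length and library size, and levels are compared between genes only on that scale. Each fold change is a difference in log2(RPKM + 1), given with its standard error (SE), and on this scale changes at low RPKM are understated. A difference passed at an adjusted p under 0.05 in limma, with Benjamini-Hochberg adjustment over all genes tested. Overlap between the libraries of 2 groups was looked at for named genes alone, without a share over all genes, and is a description. Some libraries lay closer to another group than to their own. WT day 8 library 3 had its highest correlation, 0.969 across genes, with mutant day 8 library 3 and at most 0.904 with the other WT day 8 libraries, and mutant day 8 library 1 was closest to WT day 8 library 2. GSK343 then GSK343 library 1 correlated at 0.789 with the other library of its group and at 0.951 with DMSO then DMSO library 1. Of 17 markers fixed for neurons and neural progenitors, 11 to 13 had a row per table, and among them Nefm did not exceed 1.20 RPKM in any library, Elavl4 (in 2 tables) 0.992 RPKM and Hes5 (in the mutant and WT table alone) 1.06 RPKM, against up to 82.7 RPKM for Stmn2 and 25.9 RPKM for Nefl. In these bulk samples fewer cells of a type and less RNA per cell cannot be told apart.

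The promoters of 4 of the genes are shown because Polycomb peaks were deposited for these cells and because the genes differed most in response. Irx3 and Tubb3 changed most and in opposite directions at day 8, Sox1 lay in the broadest Ezh2 peak, and Map2 had no peak in the sets merged over stages. Each is the 250 bases before a RefSeq start site on the gene's strand (GRCm38.p6). For Map2 that start is base 66175329, inside the annotated gene, so its window overlaps the first bases of the gene. The sequences are printed with CpG dinucleotides, which are dense at the start sites that Polycomb occupies, in capitals.
Irx3, chr8:91801655-91801904, minus strand: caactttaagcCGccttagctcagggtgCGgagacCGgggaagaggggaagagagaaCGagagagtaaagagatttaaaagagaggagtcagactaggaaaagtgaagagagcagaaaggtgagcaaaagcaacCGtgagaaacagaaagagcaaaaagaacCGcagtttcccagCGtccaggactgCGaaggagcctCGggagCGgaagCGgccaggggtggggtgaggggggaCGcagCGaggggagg
Tubb3, chr8:123411303-123411552, plus strand: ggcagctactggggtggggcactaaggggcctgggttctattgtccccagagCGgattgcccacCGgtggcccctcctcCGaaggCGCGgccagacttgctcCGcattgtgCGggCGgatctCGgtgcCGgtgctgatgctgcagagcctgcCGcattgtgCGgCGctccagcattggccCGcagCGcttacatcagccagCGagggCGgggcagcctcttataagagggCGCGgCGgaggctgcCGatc
Sox1, chr8:12395269-12395518, plus strand: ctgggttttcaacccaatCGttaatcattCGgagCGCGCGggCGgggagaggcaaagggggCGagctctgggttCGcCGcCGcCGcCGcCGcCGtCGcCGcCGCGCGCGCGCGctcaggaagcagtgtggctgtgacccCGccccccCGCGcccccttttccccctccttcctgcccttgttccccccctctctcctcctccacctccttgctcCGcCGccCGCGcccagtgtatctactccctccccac
Map2, chr1:66175079-66175328, plus strand: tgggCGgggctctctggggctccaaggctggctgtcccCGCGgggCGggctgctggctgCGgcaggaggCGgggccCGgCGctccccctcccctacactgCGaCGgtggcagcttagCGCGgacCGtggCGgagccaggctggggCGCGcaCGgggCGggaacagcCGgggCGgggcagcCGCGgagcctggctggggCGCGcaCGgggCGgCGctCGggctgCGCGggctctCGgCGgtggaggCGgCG
The Irx3 window held 13 CpGs, the Tubb3 window 21, the Sox1 window 29 and the Map2 window 34. Over all 32851 RefSeq windows of this length the median was 6 CpGs, and 31.5%, 16.3%, 6.78% and 3.53% of them held at least as many as Irx3, Tubb3, Sox1 and Map2. The Nes window (chr3:87970843-87971092) and both Pax6 windows (chr2:105668646-105668895 and chr2:105682213-105682462) held 15 each. The CpG count therefore did not separate the genes with Polycomb peaks from Map2, which had the most CpGs and no peak in the merged sets. On either strand, the TATA motif TATAA was found in the Tubb3 window alone of the 7 and in 22.8% of all windows, the GC box GGGCGG in Sox1, Nes, Tubb3 and Map2 and in 32.7%, and CCAAT in Sox1, Tubb3 and the upstream Pax6 window and in 33.8%. The octamer ATGCAAAT, the motif of POU factors such as Oct4, was in none of the 7 and in 1.601% of all windows. These matches are descriptions of the letters.

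Where did Polycomb proteins and their mark lie at these genes in WT cells? The authors deposited 4 CUT&RUN peak sets, each merged over ES cells, day 4 and day 8, and coordinates are theirs (mm10, the same as GRCm38). H3K27me3 peaks covered a start site of 5 of the 6 genes, all but Map2, against 21.5% of the 11431 tabulated genes with a RefSeq start. Ezh2 peaks covered a start of 4 (Pax6, Sox1, Irx3 and Tubb3), against 1.16% of genes. Suz12 and Ring1B peaks covered a start of 3 each (Pax6, Sox1 and Irx3), against 1.92% and 3.76% of genes. In these merged sets the 3 transcription factor genes thus had all 4 kinds of peak, Tubb3 had H3K27me3 and Ezh2, Nes had H3K27me3 alone, and Map2 had none of the 4. The merged Suz12 set held 491 peaks. A longer Suz12 list of 1 WT day 8 library (6511 peaks) also covered the starts of Tubb3 and Nes, so absence from the merged set does not show absence of Suz12.

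The peaks differed in width. At Sox1 (chr8:12395519-12399555) the Ezh2 peak was 19453 bases and H3K27me3 reached over 35998 bases, and at Pax6 (chr2:105668896-105698410) H3K27me3 spanned 47287 bases and both RefSeq start sites. At Irx3 (chr8:91798511-91801654) Ezh2 covered 10420 and H3K27me3 24351 bases. At Tubb3 (chr8:123411553-123422015) the Ezh2 peak was 1830 bases, placed over the start, in a 10419-base H3K27me3 peak. The H3K27me3 peak at Nes (chr3:87971093-87980451) was 95892 bases long, and it ran well past both ends of the gene. Map2 spans chr1:66175202-66442583. The authors' deposited table calls Pax6, Sox1, Irx3, Nes and Tubb3 PRC2 targets and Map2 not, where 32.2% of all its genes are called targets.

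**Figure D1:**
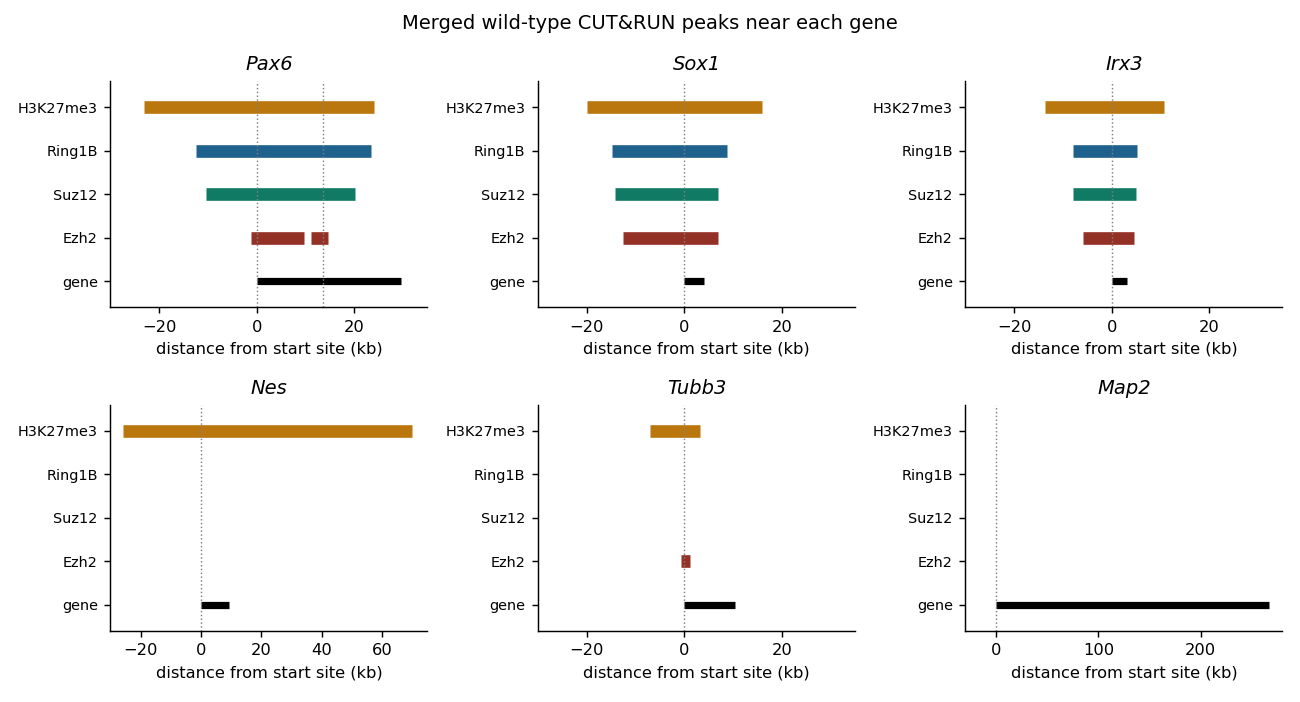
Deposited CUT&RUN peaks merged over WT stages, as bars against distance in kb from the first RefSeq start site of each gene (dotted lines are start sites, the black bar is the gene, and negative distances are upstream). H3K27me3, Ring1B, Suz12 and Ezh2 bars overlie Pax6, Sox1 and Irx3, H3K27me3 and Ezh2 overlie Tubb3, H3K27me3 overlies Nes, and no bar is drawn at Map2.

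Suz12 peak lists of single libraries were also deposited, and they differ so much in length and coverage that they give presence only. The list of mutant day 8 library 2 (7735 peaks) covered a start of Sox1, Irx3 and Tubb3, where 3.44% of genes were covered, and that of mutant day 8 library 1 (3322 peaks) covered none of the 6, where 0.236% were covered. The WT day 8 list (library 2, 6511 peaks) covered a start of all but Map2, where 9.66% of genes were covered. The mutant ES cell list of library 1 (5651 peaks) covered Pax6, Sox1 and Irx3, where 1.01% of genes were covered, and that of library 2 (7284 peaks) covered none, where 0.201% were covered. The WT ES cell list (8493 peaks) covered Pax6, where 0.158% of genes were covered. It also held 2 peaks inside Map2 (chr1:66197736-66198736 and chr1:66373581-66374581), away from the start. The WT day 4 list held 1000 peaks and covered none, where 0.0787% were covered. Suz12 peaks over Irx3 and Sox1 starts were therefore listed in the mutant too, at ES cells and at day 8, in 1 of 2 libraries each, and over Irx3 in mutant day 4 library 1 (0.936% of genes). With 1 WT library per stage, mutant and WT were not compared.

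At day 8 GSK343 changed the neural genes in both directions. Irx3 was 12.3-fold lower and Tubb3 7.71-fold higher in GSK343 than in DMSO embryoid bodies by the ratio of mean RPKM. Sox1 and Pax6 were higher at low levels. Nes and Map2 did not pass in the fit reported, which used no replicate block. In all 4 of the 6 genes passed, 3 higher and 1 lower, where 31.6% of all 14016 genes tested passed in either direction (15.6% higher and 16% lower). Of the 3 higher, Pax6 met the filter for testing only through GSK343 libraries. The median difference was 0.67 over the 6 genes and 0.0013 over all genes tested.

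Irx3 was 1.12 and 1.48 RPKM in GSK343 day 8 embryoid bodies, against 12.6 and 19.3 RPKM in DMSO (log2 fold change -2.86, SE 0.19, adjusted p = 3.28e-06). Both GSK343 libraries lay far below both DMSO libraries, near the level that day 4 embryoid bodies had with either agent. Tubb3 was 49.95 and 55.3 RPKM in GSK343, against 7.002 and 6.66 RPKM in DMSO (2.78, SE 0.17, adjusted p = 2.21e-06). Here the GSK343 libraries kept to the range of ES cells, and the DMSO libraries stood apart from every other group of the table. Sequence shared with other beta tubulins can divide reads between these genes, and no source used here states how such reads were counted, so the Tubb3 level is uncertain in that respect.

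Sox1 was 2.81 and 1.72 RPKM in GSK343, against 0.347 and 0.692 RPKM in DMSO (1.09, SE 0.24, adjusted p = 0.00593), on 250 and 129 reads against 23 and 49. Pax6 was 0.859 and 0.713 RPKM in GSK343, against 0.396 and 0.132 RPKM in DMSO (0.51, SE 0.14, adjusted p = 0.017), on 90 and 63 reads against 31 and 11. The day 8 groups did not overlap for Sox1 and Pax6, but neither did they for Nes and Map2, so this does not set Sox1 and Pax6 apart. Overlap was not counted over all genes. Pax6 stayed under 1 RPKM in every GSK343 and DMSO library of the 3 stages. It reached the 0.5 RPKM needed for testing only in GSK343 embryoid bodies. Its test therefore rests on a filter that it met only through the agent with which it was high. Without DMSO day 8 library 1 the Sox1 call was lost (0.93, adjusted p = 0.0506), and the Pax6 call was lost without DMSO day 8 library 2 (0.35, adjusted p = 0.123) or GSK343 day 8 library 1 (0.45, adjusted p = 0.0690) and when only these 2 groups were fitted (0.51, adjusted p = 0.0925). The long noncoding gene Sox1ot overlaps Sox1, and Pax6os1 and Elp4 overlap Pax6, and without a stated use of strand their reads cannot be told apart.

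Nes was 26.4 and 12.04 RPKM in GSK343, against 9.26 and 10.04 RPKM in DMSO (0.83, SE 0.30, adjusted p = 0.0598). Map2 was 1.57 and 0.548 RPKM in GSK343, against 0.529 and 0.421 RPKM in DMSO (0.44, SE 0.24, adjusted p = 0.195). In both genes GSK343 library 1 was more than 2-fold above GSK343 library 2. With the replicate number as a block both passed (adjusted p = 0.0402 for Nes and 0.0476 for Map2), where 6005 of 14016 genes passed. Without GSK343 day 8 library 2 both passed (Nes 1.37, adjusted p = 0.00246, and Map2 0.80, adjusted p = 0.0237).

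**Figure D2:**
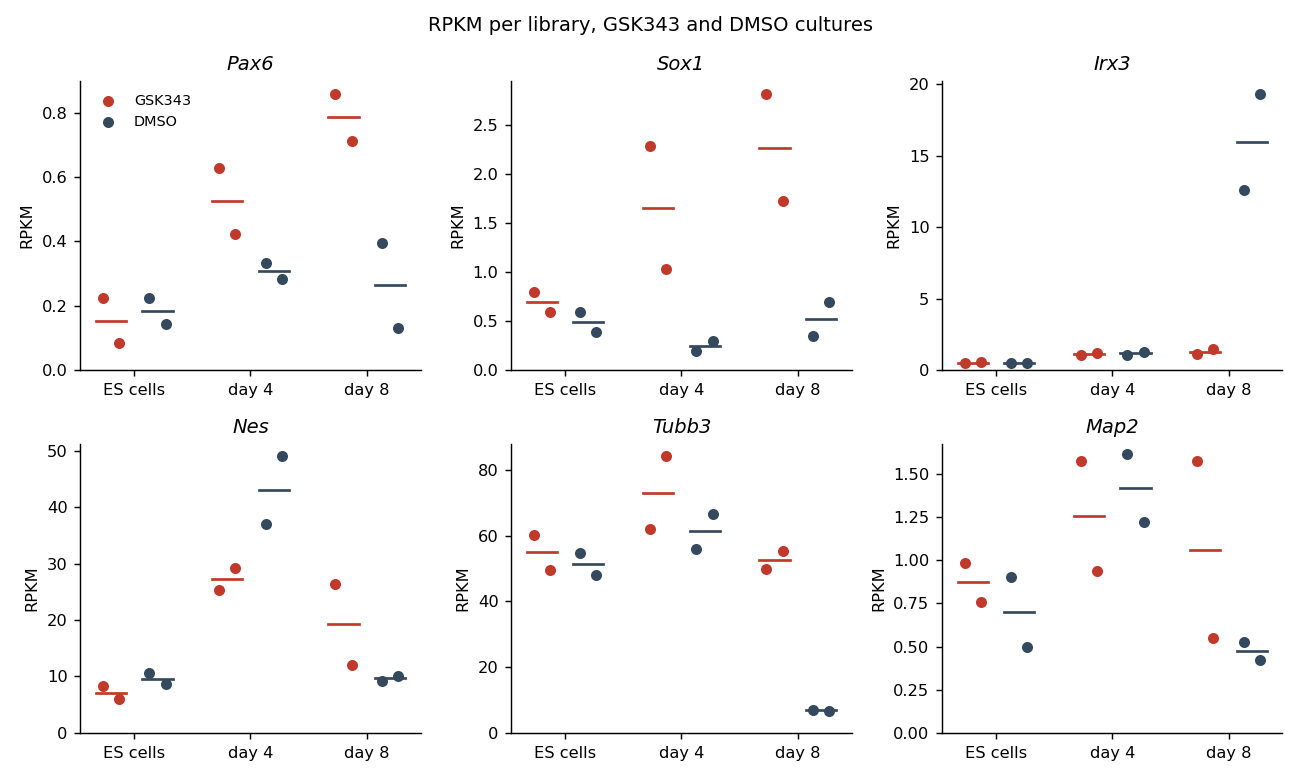
RPKM of each gene (vertical axis, linear, 1 panel per gene) in each GSK343 library (red) and DMSO library (dark) at ES cells, day 4 and day 8, with bars at the group mean of 2 libraries. At day 8 the GSK343 libraries sit at 1.12 and 1.48 RPKM for Irx3 and 49.95 and 55.3 RPKM for Tubb3, and the DMSO libraries at 12.6 and 19.3 RPKM for Irx3 and 7.002 and 6.66 RPKM for Tubb3.

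Markers of other cell types moved with these differences. The summed RPKM of 12 pluripotency markers was 1205 to 1575 in GSK343 day 8 libraries and 131 to 169 in DMSO, with all 12 above 1 RPKM in every one of them, and 10 of the 12 rose while none fell. The 12 feeder and mesenchyme markers summed to 8.42 to 33.2 RPKM in GSK343 and 104 to 247 RPKM in DMSO (7 fell). The 9 cardiac markers summed to 14.1 to 39.3 RPKM in GSK343 and 149 to 168 RPKM in DMSO (8 fell), and the 9 blood and endothelial markers to 21.5 to 53.8 RPKM in GSK343 and 226 to 665 RPKM in DMSO (8 fell). The 10 endoderm markers summed to 5.30 to 33.8 RPKM in GSK343 and 149 to 211 RPKM in DMSO (7 fell). Their part in the differences of the neural genes was not tested.

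Other genes of neural development split in both directions as well. Of 36 progenitor and patterning regulators, 17 were tested, 6 rose and 7 fell at day 8 (median -0.08). The homeobox genes Irx5 (0.686 ± 0.367 RPKM in GSK343 and 3.63 ± 0.335 RPKM in DMSO, SD, n = 2 each, -1.47, adjusted p = 0.000225) and Irx1 (-1.74, adjusted p = 0.000355) and the zinc finger gene Zfp521 (-1.33, adjusted p = 0.000255) fell. The POU gene Pou3f1, an epiblast and neural progenitor factor, rose (27.9 ± 19.4 RPKM in GSK343 and 3.33 ± 0.0533 RPKM in DMSO, SD, n = 2 each, 2.55, adjusted p = 0.000769).

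Of 37 genes of neuronal differentiation and cytoskeleton, 23 were tested, 6 rose and 3 fell (median 0.28). Those with the smallest p were the stathmin Stmn2 (44.3 ± 6.13 RPKM in GSK343 and 10.9 ± 0.0648 RPKM in DMSO, SD, n = 2 each, 1.93, adjusted p = 4.11e-06), the RNA-binding protein gene Elavl3 (1.27, adjusted p = 8.7e-05) and the neuronal intermediate filament gene Ina (2.46, adjusted p = 0.000652), which rose, and the adhesion gene Ncam1 (-1.37, adjusted p = 0.000389), which fell. In ES cells Stmn2 was 36.5 ± 2.35 RPKM in GSK343 and 35.8 ± 3.34 RPKM in DMSO (SD, n = 2 each). Of 15 neural crest and glia genes, 10 were tested, 2 rose and 5 fell (median -0.35). The falls were led by Msx1 (0.608 ± 0.505 RPKM in GSK343 and 16.5 ± 2.19 RPKM in DMSO, SD, n = 2 each, -3.47, adjusted p = 2.03e-06), Snai2 (-3.34, adjusted p = 2.11e-06), Twist1 (-2.69, adjusted p = 0.000107) and Ednrb (-1.93, adjusted p = 0.000225), genes that mesoderm and mesenchyme also use.

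Within the families of the 6 genes the pattern was uneven. The Iroquois genes sit in clusters, with Irx3, Irx5 and Irx6 on chromosome 8 and Irx1, Irx2 and Irx4 on chromosome 13. At day 8 Irx3, Irx5, Irx1 and Irx4 (-0.98, adjusted p = 0.000471) fell, from both clusters, and Irx2 did not pass (-0.08, adjusted p = 0.916). Among beta tubulins Tubb2b (1.29, adjusted p = 0.00728) and Tubb4b (0.79, adjusted p = 0.00856) rose with Tubb3, and Tubb5, the most abundant at 974 ± 44.8 RPKM in GSK343 and 1069 ± 26.5 RPKM in DMSO (SD, n = 2 each), did not pass (-0.14, adjusted p = 0.644). Among SoxB genes Sox2, which also maintains pluripotency, rose with Sox1 (170.4 ± 33.9 RPKM in GSK343 and 18.04 ± 1.83 RPKM in DMSO, SD, n = 2 each, 3.16, adjusted p = 1.08e-06), while Sox3 did not pass (0.60, adjusted p = 0.258). Among intermediate filaments Vim (-2.28, adjusted p = 0.000155) and Des (-1.52, adjusted p = 0.0177) fell and the neurofilament gene Nefh (2.47, adjusted p = 0.001) rose with Ina. Of the microtubule-associated genes Map7, an epithelial one, rose (1.41, adjusted p = 0.00242). Pax8 was the other Pax gene tested and rose (0.44, adjusted p = 0.00651).

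Before day 8 none of the 6 genes passed between GSK343 and DMSO in the fit reported, which used no replicate block. At day 4, where 0.628% of all genes passed, 0 of the 6 passed in limma on log2 values or on recovered reads (voom), and Sox1 was the 1 gene at an unadjusted p under 0.05. Sox1 was 2.28 and 1.03 RPKM in GSK343 day 4 embryoid bodies, against 0.196 and 0.299 RPKM in DMSO (1.05, SE 0.24, adjusted p = 0.0992), with no overlap and a size like that at day 8. With the replicate number as a block Sox1 passed (adjusted p = 0.0460), where 270 of 14016 genes passed. Irx3 at 1.096 and 1.21 RPKM in GSK343 and 1.08 and 1.28 RPKM in DMSO (-0.01, adjusted p = 0.998), and Tubb3 at 61.95 and 84.1 RPKM in GSK343 and 55.9 and 66.7 RPKM in DMSO (0.24, adjusted p = 0.758), overlapped between the agents. Nes was 25.4 and 29.2 RPKM in GSK343 and 36.99 and 49.1 RPKM in DMSO (-0.63, adjusted p = 0.537), with both GSK343 libraries lower. The pluripotency marker sum was already 1309 to 1427 RPKM in GSK343 and 955 to 1031 RPKM in DMSO at day 4, and its part was not tested. Of the genes in the 3 lists of neural development Stmn2 alone passed at day 4 (0.70, adjusted p = 0.0484).

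In ES cells, where 0% of all genes passed and 669 had an unadjusted p under 0.05, 0 of the 6 passed in either form of limma and none had an unadjusted p under 0.05. Tubb3 was 60.3 and 49.5 RPKM in GSK343 ES cells and 54.9 and 47.9 RPKM in DMSO ES cells, which is far above Irx3 at 0.474 and 0.592 RPKM in GSK343 and 0.479 and 0.474 RPKM in DMSO. Sox1 (0.795 and 0.594 RPKM in GSK343 and 0.588 and 0.386 RPKM in DMSO) and Pax6 (0.225 and 0.0839 RPKM in GSK343 and 0.226 and 0.143 RPKM in DMSO) were under 1 RPKM. ES cells were grown on feeders, and the feeder and mesenchyme marker sum was 115 to 208 RPKM in GSK343 and 81.0 to 103 RPKM in DMSO ES cells, with 11 or 12 of the 12 markers above 1 RPKM. Its part in the Tubb3 level was not tested.

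How did each gene move through differentiation with and without the inhibitor? In DMSO cultures 2 of the 6 rose between ES cells and day 4, where 32.8% of all genes passed (17.1% higher and 15.7% lower). Nes was 36.99 and 49.1 RPKM at day 4 and 10.6 and 8.68 RPKM in ES cells (2.04, SE 0.30, adjusted p = 0.000954), and Irx3 rose as well, at low levels (0.56, SE 0.19, adjusted p = 0.0441). The Irx3 call was lost without any 1 of the 4 libraries (adjusted p = 0.117 without day 4 library 1, 0.198 without day 4 library 2, 0.118 without ES cell library 1 and 0.151 without ES cell library 2). With GSK343, Nes alone passed (25.4 and 29.2 RPKM at day 4 and 8.24 and 5.97 RPKM in ES cells, 1.82, SE 0.30, adjusted p = 0.00285), where 22% of all genes passed (9.75% higher and 12.3% lower). Of the 6 genes 5, all but Map2, had an unadjusted p under 0.05 there. Sox1 passed without GSK343 day 4 library 2 (0.96, adjusted p = 0.0329). Pax6 passed at a pseudocount of 0.1, without a filter, after quantile normalization and with the block (adjusted p 0.0189 to 0.0474), Irx3 at a pseudocount of 0.1 (adjusted p = 0.0263) and with the block (adjusted p = 0.0343), and Tubb3 after quantile normalization (adjusted p = 0.0473).

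Between day 4 and day 8 of DMSO cultures 4 of the 6 passed, 1 higher and 3 lower, where 41.4% of all genes passed (23.3% higher and 18.1% lower). Irx3 was 12.6 and 19.3 RPKM at day 8 and 1.08 and 1.28 RPKM at day 4 (2.93, SE 0.19, adjusted p = 2.45e-06). Tubb3 fell (-2.99, SE 0.17, adjusted p = 1.25e-06), to 6.83 ± 0.244 RPKM at day 8 against 61.3 ± 7.63 RPKM at day 4 (SD, n = 2 each). Nes fell to 9.26 and 10.04 RPKM, close to its ES cell level (-2.03, SE 0.30, adjusted p = 0.000506), so that it peaked at day 4. Map2 fell to 0.529 and 0.421 RPKM, against 1.62 and 1.22 RPKM at day 4 (-0.71, SE 0.24, adjusted p = 0.0367), a call lost without any 1 of the 4 libraries (adjusted p 0.0746 to 0.181). Marker sums moved over the same days in DMSO cultures. The pluripotency sum was 131 to 169 RPKM at day 8 and 955 to 1031 RPKM at day 4, the cardiac sum 149 to 168 RPKM at day 8 and 6.52 to 7.19 RPKM at day 4, the feeder and mesenchyme sum 104 to 247 RPKM at day 8 and 11.2 to 11.6 RPKM at day 4, and the blood and endothelial sum 226 to 665 RPKM at day 8 and 5.38 to 6.41 RPKM at day 4. Their part in the stage changes was not tested.

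With GSK343 0 of the 6 passed between day 4 and day 8, in limma or voom, where 0.706% of all genes passed, and Tubb3 alone had an unadjusted p under 0.05 (-0.45, SE 0.17, adjusted p = 0.204). These comparisons of stages and of agents share libraries. Without GSK343 day 8 library 1 Nes passed (-1.11, adjusted p = 0.0168). The difference between the agents in the change over these days was tested directly, and 2 of the 6 passed, where 12.2% of all genes passed (5.68% higher and 6.51% lower). Irx3 gained less with GSK343 (-2.85, SE 0.27, adjusted p = 0.000118) and Tubb3 lost less (2.54, SE 0.24, adjusted p = 0.000138). Nes was next (1.46, SE 0.43, adjusted p = 0.0519) and passed without GSK343 day 8 library 2 (1.99, adjusted p = 0.00294), and Sox1 did not pass (0.05, adjusted p = 0.957).

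Other neural genes followed their own courses in DMSO cultures. Between ES cells and day 4, 6 of the 17 progenitor genes rose and 4 fell, and 13 of the 23 neuronal genes rose and 6 fell. Zic2 (5.05, adjusted p = 1.84e-05), Pou3f1 (3.67, adjusted p = 0.000155) and Sox3 (2.99, adjusted p = 0.000408), factors of epiblast and neural plate, rose at the time of the Nes peak, and so did the membrane glycoprotein gene Gpm6a (1.56, adjusted p = 0.000963). Stmn2 fell (-0.92, adjusted p = 0.000801). Between day 4 and day 8, 5 progenitor genes rose and 4 fell, 4 neuronal genes rose and 9 fell, and 5 of 10 neural crest and glia genes rose and 1 fell. Pou3f1 (-4.06, adjusted p = 3.52e-05), Zic2 (-2.54, adjusted p = 0.00012), Stmn3 (-2.41, adjusted p = 2e-05) and Ina (-2.92, adjusted p = 0.000184) fell with Tubb3 and Nes, and Irx5 (1.46, adjusted p = 0.000195), Irx1 (1.68, adjusted p = 0.000359), Snai2 (3.41, adjusted p = 1.73e-06), Msx1 (3.25, adjusted p = 2.76e-06) and Ncam1 (1.95, adjusted p = 3.56e-05) rose with Irx3. With GSK343 none of the genes in these 3 lists passed between day 4 and day 8.

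The order of levels differed between the genes. For Irx3 the DMSO day 8 group stood alone at the top, GSK343 day 8, DMSO day 4 and GSK343 day 4 overlapped, and the ES cell groups were lowest and overlapped. For Tubb3 DMSO day 8 stood alone at the bottom, and the other 5 groups ran from 54.9 and 47.9 RPKM in DMSO ES cells to 61.95 and 84.1 RPKM in GSK343 at day 4 with overlap between neighbours. For Sox1 the GSK343 day 8 and day 4 groups overlapped at the top, and every DMSO library and ES cell library was under 1 RPKM. For Nes DMSO day 4 was highest, GSK343 day 4 and day 8 overlapped below it, and GSK343 ES cells were lowest. For Pax6 the GSK343 day 8 group was highest and did not overlap GSK343 day 4 below it, and all neighbours of Map2 overlapped.

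**Figure D3:**
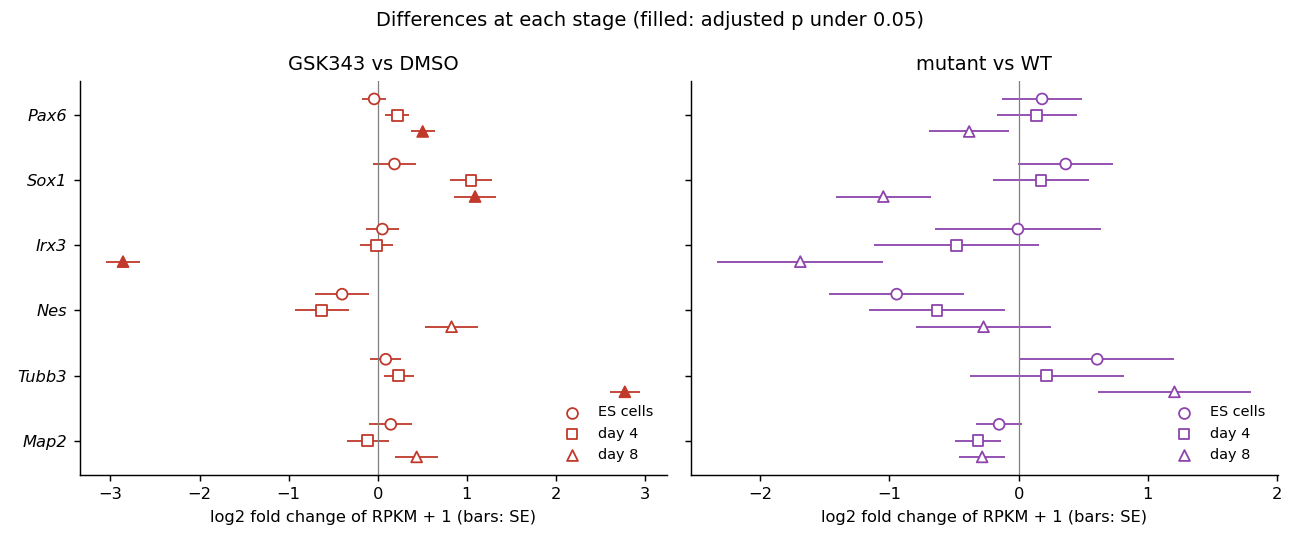
Log2 fold change of RPKM + 1 (horizontal axis, bars are SE) of each gene for GSK343 against DMSO (left, red) and mutant against WT (right, purple), with circles for ES cells, squares for day 4 and triangles for day 8, filled where the adjusted p is under 0.05. The filled points are Irx3 at -2.86, Tubb3 at 2.78, Sox1 at 1.09 and Pax6 at 0.51, each at day 8 of GSK343 against DMSO.

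The EZH2 mutation was compared with WT at the same stages. None of the 6 genes passed between mutant and WT at any stage, in limma or voom, and libraries of a group differed widely. At day 8, where 1.51% of 14180 genes passed, Irx3 was 12.2, 1.702 and 0.509 RPKM in mutant libraries 1, 2 and 3, against 17.5, 20.8 and 3.45 RPKM in WT (-1.69, SE 0.64, adjusted p = 0.219). Mutant library 1 lay above WT library 3, so the ranges overlapped. Tubb3 was 7.87, 33.5 and 18.7 RPKM in the mutant, against 3.72, 3.72 and 21 RPKM in WT (1.21, SE 0.59, adjusted p = 0.381), and again mutant library 1 and WT library 3 crossed. Sox1 was 0.0622, 0.332 and 0.367 RPKM in the mutant, against 0.882, 0.504 and 5.03 RPKM in WT (-1.05, SE 0.37, adjusted p = 0.183), without overlap, and WT library 3 alone exceeded 1 RPKM. These Sox1 values rest on 4, 7 and 32 reads in the mutant and 61, 17 and 510 reads in WT. Irx3 and Sox1 were the 2 genes at an unadjusted p under 0.05.

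The libraries that stood apart carry these values. Without WT day 8 library 3, Irx3 (-2.41, adjusted p = 0.0219) and Tubb3 (1.95, adjusted p = 0.0326) passed, where 1308 of 14180 genes passed, against 214 with it. Without mutant day 8 library 1, Irx3 passed (-2.59, adjusted p = 0.0209), where 531 genes passed. By voom 4 of all genes passed, and 3 when only these 2 groups were fitted. The pluripotency marker sum was 415, 1193 and 876 RPKM in mutant day 8 libraries 1, 2 and 3, against 67.0, 67.6 and 612 RPKM in WT day 8 libraries 1, 2 and 3, and the feeder and mesenchyme sum was 278, 16.7 and 9.19 RPKM in the mutant, against 385, 422 and 23.2 RPKM in WT. The libraries with a low pluripotency sum in either genotype had the high Irx3 and low Tubb3 values, and the part of that marker difference in the neural genes was not tested.

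At day 4, where 0.0494% of genes passed, Tubb3 was 28.4, 64.3 and 69.9 RPKM in the mutant and 38.6, 29.8 and 70.1 RPKM in WT (0.22, adjusted p = 1), and Nes was 31.9, 14.8 and 11.2 RPKM in the mutant and 40.6, 40.96 and 12.5 RPKM in WT (-0.63, adjusted p = 1). Map2 was 1.14, 0.824 and 1.33 RPKM in the mutant and 1.55, 1.72 and 1.52 RPKM in WT (-0.31, adjusted p = 1). It was the 1 gene of the 6 without overlap, and overlap was not counted over all genes. Replicate numbers pair these libraries, and Nes, Irx3 and Map2 were lower in the mutant in all 3 pairs, but none of the 6 passed with the replicate number as a block. In ES cells, where 0.0917% passed, Nes was 5.05, 6.84 and 5.62 RPKM in the mutant and 13.8, 9.61 and 13.2 RPKM in WT (-0.94, adjusted p = 0.895), and Sox1 was 0.540, 0.825 and 0.261 RPKM in the mutant and 0.232, 0.179 and 0.142 RPKM in WT (0.36, adjusted p = 0.999). Map2 was 0.856, 0.953 and 0.711 RPKM in the mutant and 0.980, 0.991 and 1.15 RPKM in WT. Nes, Sox1 and Map2 did not overlap between genotypes, and none of them passed. At both stages none of the 6 had an unadjusted p under 0.05. Of the other neural genes En2, a midbrain-hindbrain homeobox gene, rose at day 4 (1.37, adjusted p = 0.0297), and Zic1, a zinc finger factor of dorsal neural tube, rose at day 8 (1.27, adjusted p = 0.0416). They were the only calls among 18 progenitor, 25 neuronal and 10 neural crest and glia genes tested in those comparisons, and there was none in ES cells.

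**Figure D4:**
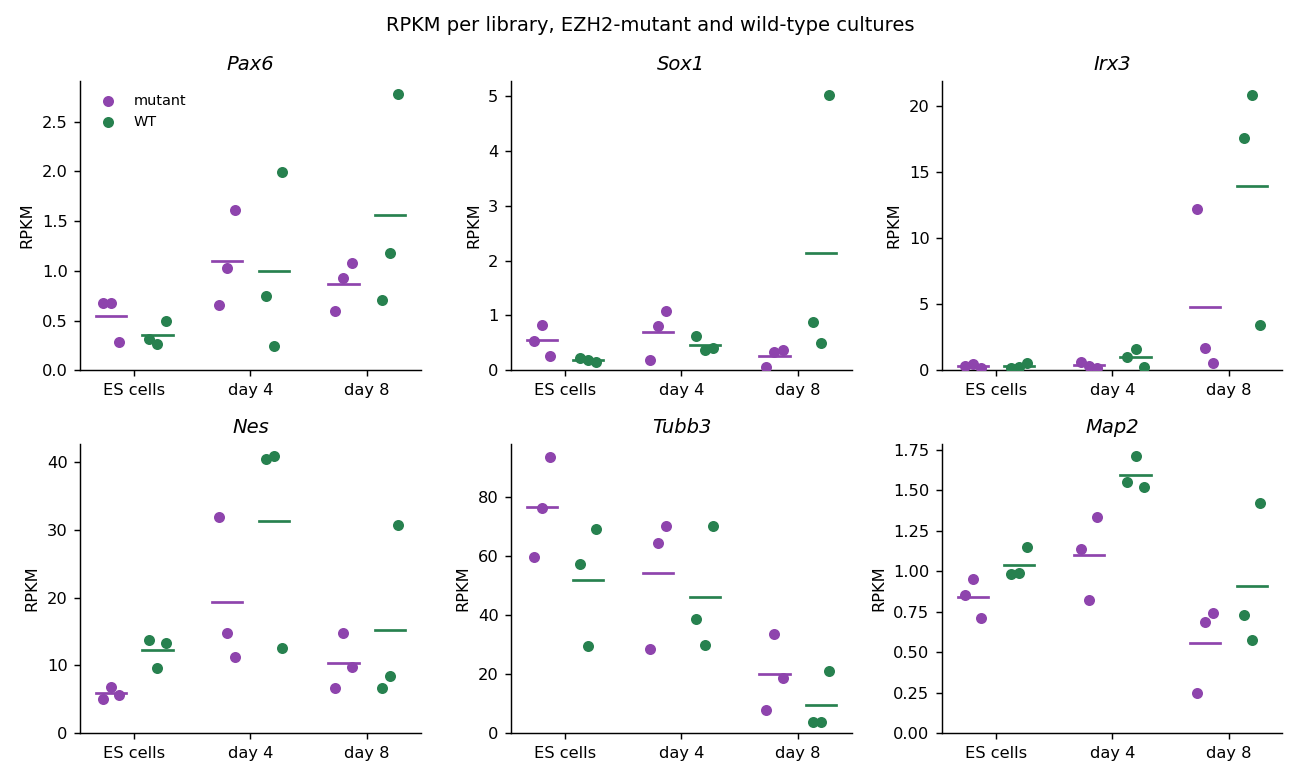
RPKM of each gene (vertical axis, linear, 1 panel per gene) in each mutant library (purple) and WT library (green) at ES cells, day 4 and day 8, with bars at the group mean of 3 libraries. At day 8 Irx3 runs from 0.509 to 12.2 RPKM in mutant and from 3.45 to 20.8 RPKM in WT libraries, so the groups overlap.

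The stages of each genotype were compared next. Between day 4 and day 8 of WT cultures 2 of the 6 passed, where 20.7% of genes passed (10.6% higher and 10.2% lower). Irx3 was 17.5, 20.8 and 3.45 RPKM at day 8 and 1.02, 1.603 and 0.274 RPKM at day 4 (2.69, SE 0.64, adjusted p = 0.0109), and Tubb3 was 3.72, 3.72 and 21 RPKM at day 8 and 38.6, 29.8 and 70.1 RPKM at day 4 (-2.49, SE 0.59, adjusted p = 0.011). Both calls were lost without WT day 8 library 1 (Irx3 2.39, adjusted p = 0.0630, and Tubb3 -2.12, adjusted p = 0.0689), without WT day 8 library 2 (2.27, adjusted p = 0.0626, and -2.12, adjusted p = 0.0627), and when only these 2 groups were fitted (adjusted p = 0.0525 and 0.0637). Nes (-1.76, adjusted p = 0.0115) and Map2 (-0.65, adjusted p = 0.0091) also passed without WT day 8 library 3, and Nes without WT day 4 library 3 (-1.67, adjusted p = 0.0435). On recovered reads (voom) Tubb3 did not pass (-2.18, adjusted p = 0.0650). Map2 did not pass as fitted (-0.47, SE 0.18, adjusted p = 0.0704) and passed with the replicate number as a block (adjusted p = 0.0437). Between ES cells and day 4, where 8.67% of genes passed, 0 of the 6 passed in limma or voom and Nes had an unadjusted p under 0.05 (1.13, SE 0.52, adjusted p = 0.208). Nes passed without WT day 4 library 3 (1.68, adjusted p = 0.0479), which had 12.5 RPKM beside 40.6 and 41.0 RPKM.

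In mutant cultures 0 of the 6 passed between day 4 and day 8 in limma or voom, where 10.3% of genes passed, and Irx3, Tubb3 and Map2 were the 3 genes at an unadjusted p under 0.05. Irx3 was 12.2, 1.702 and 0.509 RPKM at day 8 and 0.611, 0.287 and 0.188 RPKM at day 4 (1.48, SE 0.64, adjusted p = 0.152). Tubb3 was 7.87, 33.5 and 18.7 RPKM at day 8 and 28.4, 64.3 and 69.9 RPKM at day 4 (-1.50, SE 0.59, adjusted p = 0.12), and it passed with the replicate number as a block (adjusted p = 0.0380). Between ES cells and day 4, where 6.37% of genes passed, 0 passed and Nes had an unadjusted p under 0.05 (1.45, SE 0.52, adjusted p = 0.123). The difference between the genotypes in the day 4 to day 8 change passed for 0 of the 6 and 0% of all genes, with 370 genes and, of the 6, Sox1 at an unadjusted p under 0.05 (-1.22, SE 0.52, adjusted p = 0.999).

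The replated cultures asked whether cells that had differentiated with or without the inhibitor kept their expression in ES cell medium. Of the 6 genes 5 were tested, since Pax6 did not reach 0.5 RPKM in any library. None passed in any of the 4 comparisons, in limma or voom and at an unadjusted p under 0.05, and 0% of the 14367 genes tested passed in each. That share rests on the fit, since 996 genes passed for GSK343 then DMSO against DMSO then DMSO when only these groups were fitted and 595 without DMSO then DMSO library 1, and 105 genes passed for GSK343 then GSK343 against DMSO then GSK343 when only these groups were fitted. Unadjusted, 328 genes were under 0.05 for DMSO then GSK343 against DMSO then DMSO, 3385 for GSK343 then DMSO against DMSO then DMSO, 196 for GSK343 then GSK343 against GSK343 then DMSO, and 2633 for GSK343 then GSK343 against DMSO then GSK343.

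Sox1 was listed at 0 and 1.98 RPKM in GSK343 then GSK343, 0.508, 0.786 and 0.579 RPKM in GSK343 then DMSO, 0 in all 3 libraries of DMSO then GSK343, and 0.410, 0 and 0 RPKM in DMSO then DMSO. It was thus above 0 in 4 of the 5 libraries that had differentiated with GSK343 and in 1 of the 6 that had differentiated with DMSO. The libraries above 0 held 6 to 22 Sox1 reads, and no such count was made over all genes. A count of 0 allows 3 reads, which is 0.0891 to 0.328 RPKM for Sox1 over the replated libraries, and this covers counting error only. Sox1 reached the 0.5 RPKM needed for testing only in libraries that had differentiated with GSK343, so it was tested only through the groups where it was high. Against DMSO then GSK343, GSK343 then GSK343 did not pass for Sox1 (0.79, SE 0.37, adjusted p = 0.278). Without GSK343 then GSK343 library 1 the difference was 1.58, with 1 library left in that group. GSK343 then DMSO against DMSO then DMSO gave 0.53, SE 0.33, adjusted p = 0.327.

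Tubb3 was 18.3 and 28.5 RPKM in GSK343 then GSK343, 20.05, 25.5 and 26.4 RPKM in GSK343 then DMSO, 10.7, 13.7 and 9.87 RPKM in DMSO then GSK343 and 37.6, 6.62 and 12.2 RPKM in DMSO then DMSO. Every library that had differentiated with GSK343 lay above every DMSO then GSK343 library, which was not counted over all genes. DMSO then DMSO spanned the others because of its library 1. Irx3 was 4.48 and 6.78 RPKM in GSK343 then GSK343, 2.604, 5.64 and 13.3 RPKM in GSK343 then DMSO, 9.11, 27.9 and 8.53 RPKM in DMSO then GSK343 and 3.15, 3.65 and 10.2 RPKM in DMSO then DMSO. All 11 libraries were above the levels of ES cells in the other tables, which were normalized separately.

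Nes ran from 3.17 to 12.3 RPKM in GSK343 then GSK343, from 7.37 to 27.1 RPKM in GSK343 then DMSO, from 5.42 to 34.3 RPKM in DMSO then GSK343 and from 5.52 to 12.8 RPKM in DMSO then DMSO, so that all groups overlapped. Map2 was 0.881 and 0.945 RPKM in GSK343 then GSK343, 1.02, 0.633 and 0.900 RPKM in GSK343 then DMSO, 2.02, 1.35 and 1.45 RPKM in DMSO then GSK343 and 1.27, 3.23 and 1.13 RPKM in DMSO then DMSO. Each library that had differentiated with GSK343 was below each that had differentiated with DMSO, and such separation was not counted over all genes. GSK343 then DMSO against DMSO then DMSO alone gave -0.57 (adjusted p = 0.284) for Map2. Pax6 was at most 0.431 RPKM, on 12 reads or fewer.

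**Figure D5:**
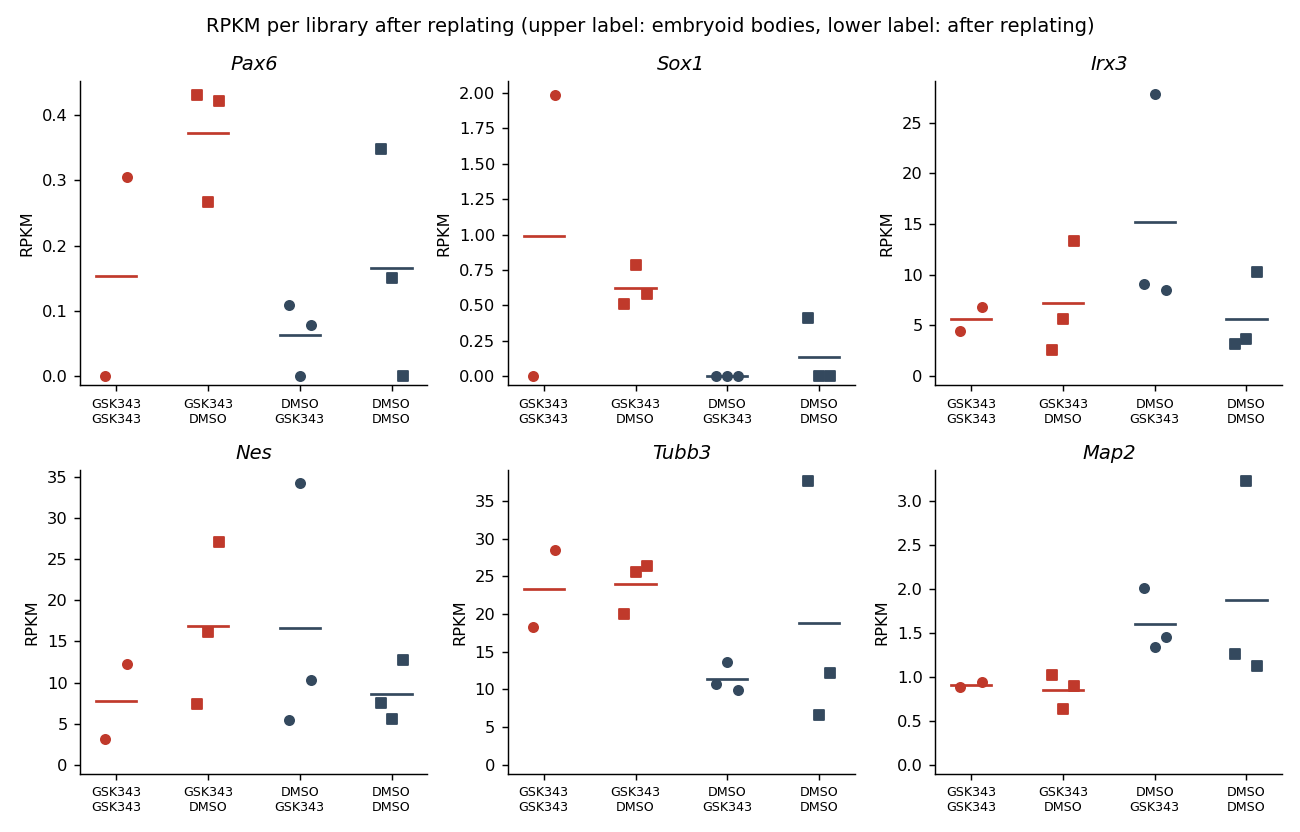
RPKM of each gene (vertical axis, linear) in each replated library, with groups labelled by the agent during differentiation (upper line) and after replating (lower line), red for GSK343 and dark for DMSO during differentiation, circles for GSK343 and squares for DMSO after replating, and bars at the group mean of 2 or 3 libraries. Sox1 is at 0 in all 3 libraries of DMSO then GSK343 and in 2 of DMSO then DMSO.

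Marker sums of other cell types also varied between the replated groups. The pluripotency marker sum was 453 to 1109 RPKM in GSK343 then GSK343, 641 to 1109 RPKM in GSK343 then DMSO, 81.7 to 134 RPKM in DMSO then GSK343 and 92.3 to 617 RPKM in DMSO then DMSO. The feeder and mesenchyme sum was 717 to 2236 RPKM in GSK343 then GSK343, 1093 to 2559 RPKM in GSK343 then DMSO, 2652 to 7152 RPKM in DMSO then GSK343 and 1545 to 4562 RPKM in DMSO then DMSO, with all 12 of its markers above 1 RPKM in every library. The part of either in the values of the neural genes was not tested. DMSO then DMSO library 1, with the highest pluripotency sum of its group, was the library with Sox1 above 0 and the high Tubb3. Over all genes tested the median difference was -0.23 for DMSO then GSK343 against DMSO then DMSO, where that of the 5 neural genes was -0.08.

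The authors' deposited tables give their own fold changes for stage and replating comparisons. In the authors' deposited table the comparison of DMSO then GSK343 with GSK343 then GSK343 gave a log2 fold change of 3.45 for Sox1 (adjusted p = 0.000252), where 9.14% of all genes passed, and the other 5 genes did not pass. The table does not state which group is on top of that ratio. Sox1 was 0 RPKM in all 3 libraries of DMSO then GSK343 and reached 1.98 RPKM in GSK343 then GSK343. The positive value therefore means a higher level in GSK343 then GSK343. In the authors' deposited table for WT cultures, day 8 against day 4 gave 3.72 for Irx3 (adjusted p = 2.23e-11), -2.27 for Tubb3 (adjusted p = 3.19e-05) and 1.99 for Sox1 (adjusted p = 0.000228), where 17.1% of genes passed. In the authors' deposited table for mutant cultures, day 8 against day 4 gave 3.41 for Irx3 (adjusted p = 6.42e-10) and -1.43 for Tubb3 (adjusted p = 0.0203), where 11.5% of genes passed. Neither passed in the log2 RPKM fit of the mutant. Between ES cells and day 4 the authors' deposited table passed more of the genes than the log2 RPKM fit. With GSK343 it passed Pax6 (1.30, adjusted p = 0.00327), Sox1 (1.14, adjusted p = 0.00372) and Irx3 (0.99, adjusted p = 0.0404) beside Nes, where 23.5% of genes passed, and in DMSO it passed Map2 (0.93, adjusted p = 0.00586) and Sox1 (-0.76, adjusted p = 0.04997) beside Nes and Irx3, where 32.9% passed. The authors' deposited table passed Pax6 (1.26, adjusted p = 0.0192) and Nes (1.35, adjusted p = 0.0270) in WT, where 13.2% passed, and Nes in the mutant (1.71, adjusted p = 0.00289), where 12.5% passed. For DMSO day 8 against day 4 the authors' deposited table passed Sox1 (0.83, adjusted p = 0.0403) beside the 4 genes called here, where 38.5% passed, and with GSK343 it passed none of the 6, where 8.3% passed. Sox1 did not pass in the log2 RPKM fit of the WT cultures (0.82, SE 0.37, adjusted p = 0.126), in which WT library 3 held 5.03 RPKM and the others 0.882 and 0.504 RPKM.

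Genes with the most similar course were sought over all 41 libraries, as the smallest root mean square (RMS) difference of log2(RPKM + 1) after centring each table, among 12978 genes. For Irx3, which itself deviated by 1.20 RMS from the table means, these were Pitx1 (0.483), Mmp15 (0.487) and Jph2 (0.503). For Tubb3, at 1.10, they were Zbtb8a (0.439), Hpdl (0.450) and Rasgrp2 (0.494). For Nes, at 0.883, they were Fam19a5 (0.411), Flywch1 (0.482) and Fam131b (0.494). For Sox1, at 0.523, the nearest gene, Nlk, was 0.430 away, which is little less than the deviation of Sox1 itself. Map2, at 0.311, varied too little for the search, and Pax6 was not tested in every table. Pitx1 is a homeobox gene of hindlimb and pituitary, Mmp15 a membrane metalloproteinase and Jph2 a junctional protein of heart muscle, none of them a neural marker.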

How the data were processed

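RNA-seq was tabulated by the authors as RPKM per gene and library in 3 deposited tables, beside the authors' deposited log2 fold changes and adjusted p-values for comparisons of their own. Per the submitters' processing notes, tools included STAR 2.5.3, featureCounts 1.6.1, Bowtie2 2.3.4.3, HOMER 4.10.3 and edgeR, with mm10. No source used here gives the gene annotation, strand use or treatment of shared reads. Peak lists are deposited coordinates. In the mutant and WT table the deposited RPKM carry a further scaling per library. Whole reads were recovered from the deposited RPKM for 100% of the values above 0 within 0.02 of a whole number, leaving out 138 genes of the mutant and WT table that have no length.

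Tables were analysed separately with limma 3.58.1 in R 4.3.3, on log2(RPKM + 1), with 1 fit over all groups of a table, an empirical Bayes trend and Benjamini-Hochberg adjustment at 0.05. Genes needed 0.5 RPKM in as many libraries as the smallest group holds. The scripts were tested on simulated data. The 6 genes, the gene lists and the rules were chosen with earlier results of these data known. All 6 genes are named; other genes were named from the lists, the smallest p first. Replicate numbers were taken as pairs where a comparison had 3 pairs and each pair's deviations correlated above 0.1. This held for mutant against WT at day 4 and for the 4 stage comparisons of mutant and WT. No other comparison of 3 pairs met it. Comparisons of 2 pairs also correlated above 0.1, in GSK343 and DMSO cultures at 0.358 to 0.666. GSK343 then GSK343 gave 0.177 to 0.432 against GSK343 then DMSO and 0.460 to 0.515 against DMSO then GSK343. The fit reported used no block. Peaks were assigned within 5 kb, and a start was covered when a peak held it. Intervals from read counts cover counting error only.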

Additional observations from a re-analysis of the deposited data

Results flagged for a closer look

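The log2 change between day 4 and day 8, GSK343 minus DMSO, differed by -2.85 for Irx3 and by 2.54 for Tubb3. Both were singled out because the difference between the agents in that change passed its own test in limma (adjusted p = 0.000118 for Irx3 and 0.000138 for Tubb3, 2 libraries a group). In both genes the day 8 libraries of the 2 agents did not overlap and the day 4 libraries did. The pluripotency marker sum was 1205 to 1575 RPKM in GSK343 and 131 to 169 RPKM in DMSO at day 8, and its part in the differences was not tested.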

How the results depend on the processing

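Of 15 differences called among the 6 genes, 143 of 162 refits kept the call, 19 lost it and 0 reversed. Of 101 not called, 32 of 1184 refits passed. The number of the 6 genes called moved in 12 of 20 comparisons. For GSK343 against DMSO at day 8 it was 4, with 5 after quantile normalization, 3 when only the 2 groups were fitted, 6 with the replicate number as a block and 3 to 6 with 1 library left out. At day 4 it was 0, and 1 with the block. For day 4 against ES cells it was 1 in GSK343 cultures, with 3 at a pseudocount of 0.1, 2 without a filter, 3 after quantile normalization, 3 with the block, and 1 to 2 with 1 library left out. In DMSO cultures it was 2, with 3 when only the 2 groups were fitted, 3 with the block and 1 with any 1 library left out, and in WT cultures 0 to 1 with 1 left out. For day 8 against day 4 it was 2 in WT cultures, with 1 by voom on recovered reads, 3 after quantile normalization, 3 with the block, 0 when only the 2 groups were fitted, and 0 to 4 with 1 library left out. It was 4 in DMSO cultures and 3 with any 1 library left out, 0 to 1 in GSK343 cultures with 1 left out, and in mutant cultures 0, with 1 after quantile normalization and 1 with the block. For the difference of these changes, GSK343 minus DMSO, it was 2, with 3 after quantile normalization, 3 with the block and 2 to 3 with 1 library left out. With 1 library left out it was 0 to 2 for mutant against WT at day 8 and 0 to 1 for GSK343 then GSK343 against DMSO then GSK343. Where a group was left with 1 library, that library was assumed to vary like the other groups. The causes were not tested. In GSK343 and DMSO cultures the deviations of equal replicate numbers correlated at 0.358 to 0.666 in every comparison of 2 groups. With 2 libraries a group this is 1 value per comparison, and the fit reported did not use it. In these cultures the block passed Sox1 at day 4 (1.05, adjusted p = 0.0460). At day 8 it passed Nes (0.83, adjusted p = 0.0402) and Map2 (0.44, adjusted p = 0.0476). Peak windows of 0 and 1 kb gave the same counts of the 6 genes (4 for Ezh2, 5 for H3K27me3, 3 for Ring1B and 3 for Suz12). Depth limits the low genes: Sox1 and Pax6 rest on 0 reads in some replated libraries, and Irx3 on 5 to 13 reads in some mutant and WT libraries. Sox1 had 4 reads in mutant day 8 library 1. Pax6 had 4 reads in WT day 4 library 2 and 2 reads in GSK343 ES cell library 2.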
